A study of Mus musculus with 6 samples.

Results

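Distal chromosome 1 of the mouse was described through the protein-coding genes whose smallest start in the deposited annotation lay at or beyond position 80000000 (GRCm38). These were 798 of the 21983 protein-coding genes counted, from a first start at 80198706 to a last end at 195176716. A position profile was drawn from the 359 members whose mean level over the libraries was above 3 on the log2 CPM scale, where CPM is counts per 1000000 counts of a library. Of the other members, 439 had a mean of 3 or less, and 115 of those had 0 counts in every library. The region was picked because its genes were shifted in different directions in different libraries, so the log2 differences that chose it are given as a description, without a test.

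RNA was taken from mammary tumors of NIC mice, labelled NIC+ tumors. Their transgene makes an activated ErbB2 receptor and Cre recombinase from 1 transcript, under the MMTV promoter, which is active in mammary epithelium. The wt/wt group held 3 libraries (CdGAP wt/wt, called wt1, wt2 and wt3) and the fx/fx group 3 (CdGAP fx/fx, called fx1, fx2 and fx3). In fx/fx both copies of Arhgap31, the gene for the GTPase-activating protein CdGAP, carry sites that Cre can recombine, so deletion is limited to cells that express the transgene, which all 6 tumors carry. Age and tumor stage were not given in the labels, and nothing there says that the 3 libraries of a genotype came from separate animals, so any p-value measures the spread between these samples.

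Mouse chromosomes are telocentric, and the distal part of chromosome 1 is the part far from the centromere. It holds genes of many unrelated roles: subunits of the proteasome and of mitochondrial complexes, laminin chains, cell division genes, Fc receptors, the SLAM family of lymphocyte receptors and interferon-inducible nuclear proteins. Neighbours in such a stretch share a position on the chromosome rather than a pathway. RNA counts carry no direct measurement of DNA, and DNA was not analysed here. In bulk tumor RNA, fewer cells of a type and less RNA per cell cannot be told apart.

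Library totals ranged from 36732137 counts (fx2) to 53606276 counts (fx1). Arhgap31, on chromosome 16, measured 663.8, 432.2 and 549.5 CPM in wt/wt and 155.4, 44.05 and 115.5 CPM in fx/fx (libraries 1, 2 and 3 in order, here and in all such lists), so the libraries went with their labels. All 8 luminal epithelial markers were detected in every library, with summed levels from 3963 to 5456 CPM. Fibroblast markers summed to between 301.1 and 521.5 CPM in wt/wt and between 811.2 and 1483 CPM in fx/fx.

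The promoters shown are those of the genes on either side of 2 of the changes of level described below, as the search for such changes placed them. The exact places are uncertain, so these genes need not be the true ends of a stretch. Each is 300 bases from RefSeq on GRCm38.p6, from 250 bases before to 50 after the gene start, written 5′ to 3′ on the gene's strand. Sp100 (chr1:85649738-85650037, plus strand) and Cab39 (chr1:85793191-85793490, plus strand) stood on either side of the first change in wt1. Uchl5 (chr1:143777028-143777327, plus strand) and Rgs2 (chr1:144004100-144004399, minus strand) stood on either side of the change in fx3. Capitals mark the TATAAA box, the CCAAT box or the GGGCGG box on either strand, and neighbouring matches may overlap.
Sp100: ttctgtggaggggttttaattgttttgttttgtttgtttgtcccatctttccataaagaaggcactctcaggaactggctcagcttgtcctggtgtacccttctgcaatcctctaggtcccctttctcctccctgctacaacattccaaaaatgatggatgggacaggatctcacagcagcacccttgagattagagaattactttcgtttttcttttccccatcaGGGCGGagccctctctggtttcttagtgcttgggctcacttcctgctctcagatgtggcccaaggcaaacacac
Cab39: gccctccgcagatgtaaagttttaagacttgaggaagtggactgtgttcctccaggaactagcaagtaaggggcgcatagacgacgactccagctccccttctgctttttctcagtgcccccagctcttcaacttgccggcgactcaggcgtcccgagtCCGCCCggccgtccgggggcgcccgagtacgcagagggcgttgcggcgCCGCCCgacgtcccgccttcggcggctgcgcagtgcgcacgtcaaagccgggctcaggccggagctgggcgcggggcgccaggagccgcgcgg
Uchl5: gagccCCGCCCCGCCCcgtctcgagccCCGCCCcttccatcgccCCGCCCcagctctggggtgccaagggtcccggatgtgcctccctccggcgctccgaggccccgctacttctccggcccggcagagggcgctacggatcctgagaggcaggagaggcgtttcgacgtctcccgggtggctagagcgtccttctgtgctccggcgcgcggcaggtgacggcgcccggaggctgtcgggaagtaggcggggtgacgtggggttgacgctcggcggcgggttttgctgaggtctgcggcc
Rgs2: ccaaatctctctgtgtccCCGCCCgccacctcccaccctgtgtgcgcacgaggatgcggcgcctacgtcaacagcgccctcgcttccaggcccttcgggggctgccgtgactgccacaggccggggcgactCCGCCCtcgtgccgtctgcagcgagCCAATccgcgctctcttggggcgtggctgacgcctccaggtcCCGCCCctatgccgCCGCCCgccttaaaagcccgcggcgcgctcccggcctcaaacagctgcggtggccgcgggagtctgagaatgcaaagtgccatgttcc
The GGGCGG box, known as a binding motif of Sp1 family factors, was present once in the Sp100 window, 2 times in Cab39, 4 times in Uchl5 and 4 times in Rgs2. The CCAAT box occurred 1 time, in Rgs2, and the TATAAA box in none of the 4. A match of letters is a description only.

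In the wt2 library the region was low, and in fx3 it was high. Over the 359 genes of the profile, the median log2 difference from the wt/wt mean was -0.54 in wt2, while wt1 and wt3 were at 0.32 and 0.28. The fx/fx libraries were at 0.49, 0.38 and 0.81, in order. The values of the 3 wt/wt libraries had a mean of 0.02 ± 0.48 (SD, n = 3) and those of fx/fx a mean of 0.56 ± 0.22 (SD, n = 3). All fx/fx medians thus lay above all wt/wt medians, a separation that belongs to the values the region was picked on.

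The rest of the genome did not share these medians. Over the 214 profile genes on the same chromosome before the boundary, medians ran from -0.09 in fx2 to 0.12 in fx3. Over the 9404 profile genes on other chromosomes they ran from -0.05 to 0.05. Single other chromosomes reached -0.82 (chromosome 4 in fx3), -0.70 (chromosome 4 in fx1) and 0.43 (chromosome 2 in fx2), but in wt2 they stayed between -0.12 (chromosome 12) and 0.24 (chromosome 14). In wt2, then, no other chromosome had a median as far from 0 as the region.

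**Figure D1:**
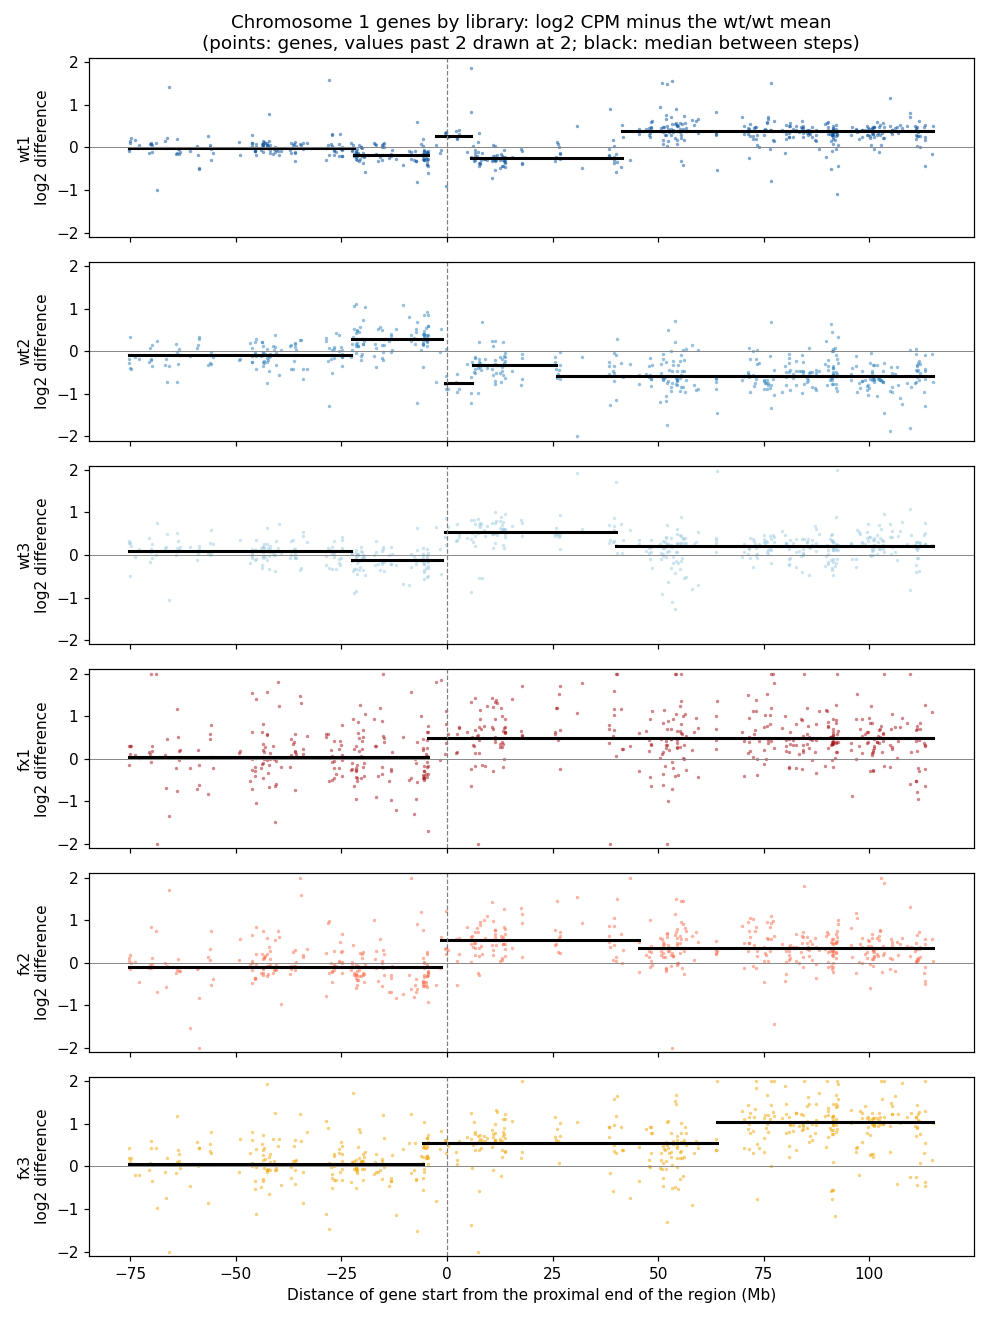
Log2 CPM minus the wt/wt mean (vertical axis) of each profile gene on chromosome 1 against the distance of its start from the proximal end of the region in Mb (horizontal axis, dashed line at 0), 1 panel per library, with values past 2 in size drawn at 2. Black lines are medians between steps; in wt2 they lie below 0 along the whole region, in wt1 they lie, within the region, below 0 only in the stretch from 85.8 to 121.3 Mb, and in fx3 they rise to 1.04 in the last part.

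Because wt2 is 1 of the 3 libraries in the reference, its low values lower the reference and raise every other library by construction. Against the median of all 6 libraries, a reference added after the wt/wt libraries were seen to differ, the region's median was -0.87 in wt2 and 0.45 in fx3. The other libraries then lay near 0, at -0.01 and -0.05 (wt1 and wt3) and at 0.12 and 0.04 (fx1 and fx2). A median of -0.87 is a level 1.83-fold lower, and 0.45 is a level 1.36-fold higher. On this reference 346 of the 359 genes were below 0 in wt2.

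Ranking the libraries gene by gene needs no reference. For 274 of the 359 genes (76.3%) wt2 was the lowest of the 6 libraries, against 26.6% of all 9990 protein-coding genes in the profile. For wt1 the count was 33 (9.19%), against 8.56% of all. Among the region's genes fx3 was the highest library for 197 (54.9%), against 20.6% of all. Both held at once for 164 genes (45.7%), against 6.14% of all. These shares rest on the libraries the region was picked in and are a description of them.

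The change in wt2 did not fall exactly at the boundary. Acsl3, a fatty acid activating enzyme starting at 78.66 Mb, was 0.52 above the wt/wt mean in wt2. Its next neighbours in the profile, still outside the region, were low: Ap1s3 (79.61 Mb) at -0.76, Wdfy1 (79.70 Mb) at -0.58 and Mrpl44 (79.78 Mb) at -0.89. Serpine2, a serine protease inhibitor at 79.79 Mb, was an exception among them at 0.04. Just inside the boundary Cul3, the scaffold of a family of ubiquitin ligases, was at -0.90, Irs1 at -0.72, Rhbdd1 at -0.95, Col4a4 at -0.54 and Mff at -0.75. The stretch of chromosome 1 up to Acsl3 had gone the other way in wt2, with a median of 0.28 between 57.4 and 78.7 Mb.

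The minimum level also bounds the profile. Ralgps2 (mean log2 CPM 3.02), Arhgap30 (3.03) and Tsen15 (3.11) were just inside it, and Atp2b4 (2.98), Dpt (2.97) and 2310009B15Rik (2.94) just outside. In wt2 these 6 ranged from -0.76 to 0.68 about the wt/wt mean, with the 3 outside all below 0 and the 3 inside of both signs.

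Irs1, the insulin receptor substrate that carries growth factor signals, shows the low level of wt2 next to the boundary (chromosome 1, 82233101 to 82291416, minus strand). Its levels were 188.9, 87.5 and 182.8 CPM in wt/wt and 159.5, 213.1 and 183.8 CPM in fx/fx. The 5 libraries other than wt2 overlapped between genotypes, and wt2 lay below all of them.

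Along the region the libraries changed level at different places. Dividing each library's profile into stretches of constant level gave 2 steps inside the region in each of wt1 and wt2, 1 in each of wt3, fx2 and fx3, and 0 in fx1. The steps of wt1 and fx3 cut the region into 4 stretches, called A to D here. Stretch A ran from Cul3 to Sp100 (80.3 to 85.7 Mb) and held 42 members, 9 of them in the profile. Stretch B ran from Cab39 to Insig2 (85.8 to 121.3 Mb) with 186 members, 78 in the profile. Stretch C ran from Ccdc93 to Uchl5 (121.4 to 143.8 Mb) with 157 members, 75 in the profile. Stretch D ran from Rgs2 to Cr1l (144.0 to 195.1 Mb) with 413 members, 197 in the profile. The wt1 step between Insig2 and Ccdc93 and the fx3 step between Uchl5 and Rgs2 stood at the same pair of genes in all 6 settings of the step search. The wt1 step between Sp100 and Cab39 moved to the pair Cops7b and Dis3l2, between 86609375 and 86703808, when at least 25 genes per stretch were asked for.

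In stretch B the median of wt1 was low along with that of wt2. The medians against the wt/wt mean were -0.25 (wt1) and -0.33 (wt2), with wt3 at 0.56 and fx/fx at 0.67, 0.55 and 0.65. Against the median of 6 libraries they were -0.69 in wt1 and -0.86 in wt2, and between 0.10 and 0.20 in the other 4. In stretches A, C and D the median of wt1 on that reference was 0.03, 0.09 and 0.04. Both wt1 and wt2 lay below all 4 other libraries for 66 of the 78 genes of stretch B (84.6%), for 3 of 9 in stretch A, for 7 of 75 in stretch C and for 31 of 197 in stretch D, against 11.5% of all genes in the profile.

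In stretch D fx3 rose above the other libraries. Its median was 1.04 against the wt/wt mean, with 184 of the 197 genes (93.4%) above 0, while fx1 and fx2 were at 0.45 and 0.33. Against the median of 6 libraries fx3 was at 0.69, a level 1.61-fold higher, after 0.20 in stretch B and 0.06 in stretch C. It was the highest library for 158 of the 197 genes (80.2%), for 15 of 75 in stretch C and for 23 of 78 in stretch B. The library wt2 was the lowest for 164 of the 197 in the same stretch, and its median against the median of 6 was the same in stretches C and D, at -0.87.

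**Figure D2:**
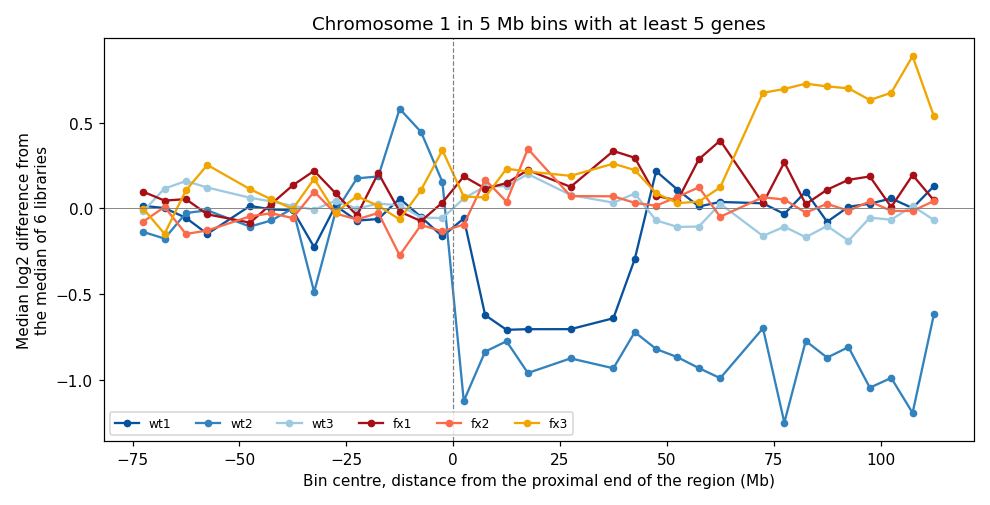
Median log2 difference from the median of 6 libraries (vertical axis) in 5 Mb bins with at least 5 profile genes against the distance of the bin's centre from the proximal end of the region in Mb (horizontal axis), 1 line per library. The wt2 line drops at the boundary and stays low to the end, the wt1 line is low in the bins of stretch B and returns to 0, and the fx3 line rises between the bins of stretch C and those of stretch D.

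Within a stretch the level was kept from bin to bin. In bins of 5 Mb with at least 5 profile genes, wt2 ranged from -1.25 to -0.62 against the median of 6 from the boundary to the distal end. In wt1 the bins from 85 to 120 Mb ranged from -0.71 to -0.62. Bins from 125 Mb onward ranged from -0.08 to 0.22 in that library. In fx3 the bins from 150 Mb onward ranged from 0.54 to 0.89, and those from 80 to 145 Mb from 0.03 to 0.26.

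**Figure D3:**
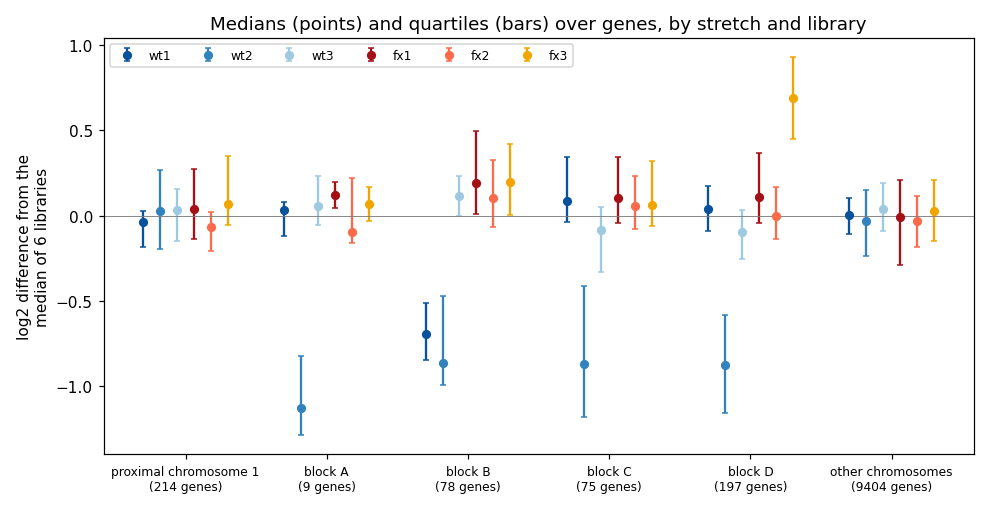
Medians (points) and quartiles (bars) over genes of the log2 difference from the median of 6 libraries (vertical axis), for proximal chromosome 1, stretches A to D (blocks A to D on the axis) and the other chromosomes, 1 colour per library. Only wt2 lies well below 0 in all 4 stretches, wt1 does so in B only, and fx3 lies above the others in D.

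The smaller steps depended on the reference. In wt2 the steps between Itm2c and Psmd1 (a change of 0.43) and between Tnfrsf11a and Zcchc2 (a change of -0.26) were found against the wt/wt mean, to which wt1 contributes. Against the median of 6 libraries wt2 had 0 steps inside the region. A step of -0.32 in wt3 between Tmem37 and Dbi lay close to the second step of wt1. A step of -0.19 in fx2 between Actr3 and Slc35f5 was absent at the stricter penalty.

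The genes beside the steps show the same in single levels. At the first step of wt1, Sp140, an interferon-inducible nuclear body protein, measured 14.8, 3.55 and 10.7 CPM in wt/wt and 6.98, 8.30 and 19.9 CPM in fx/fx. Sp100, the last gene before the step (ENSMUSG00000026222, 85649988 to 85709998) and a component of PML nuclear bodies, measured 54.5, 7.54 and 8.18 CPM in wt/wt and 9.67, 20.4 and 5.77 CPM in fx/fx. In both, wt1 was the highest of the wt/wt libraries. Across the step Cab39, a scaffold that activates the kinase LKB1 (ENSMUSG00000036707, 85793441 to 85851576), measured 78.2, 59.3 and 161 CPM in wt/wt and 229.4, 138.2 and 142.4 CPM in fx/fx. There wt1 and wt2 were both below every other library. No profile gene lay in the 83443 bases between Sp100 and Cab39. The place of this step is less certain than that gap. Trip12, a ubiquitin ligase and the profile gene before Sp140 (84.72 Mb), measured 139.9, 122.4 and 200.3 CPM in wt/wt and 234.3, 267.9 and 243.5 CPM in fx/fx. It thus already had wt1 and wt2 below every other library, and the high wt1 level next to the step rests on Sp140 and Sp100, both interferon-inducible.

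At the second step of wt1 the order turned back. Insig2, which holds the sterol sensor SCAP in the endoplasmic reticulum (ENSMUSG00000003721, 121304353 to 121332589), measured 29.5, 33.1 and 67.1 CPM in wt/wt and 91.0, 64.1 and 76.6 CPM in fx/fx. Ccdc93, a subunit of an endosomal sorting complex (ENSMUSG00000026339, 121431049 to 121506460), measured 55.2, 25.6 and 40.0 CPM in wt/wt and 44.8, 38.3 and 50.1 CPM in fx/fx. Over a gap of 98460 bases, wt1 thus passed from the lowest library to the highest, while wt2 stayed low. That wt1 was highest rests on Ccdc93. The next profile gene, Ddx18, measured 34.4, 19.3 and 37.5 CPM in wt/wt and 34.5, 36.1 and 37.9 CPM in fx/fx. There wt1 lay close to the libraries other than wt2, but below each of them.

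At the fx3 step the flanking genes differed in how clear they were. Uchl5, a deubiquitinating enzyme of the proteasome (ENSMUSG00000018189, 143777272 to 143807466), measured 50.4, 24.5 and 53.4 CPM in wt/wt and 47.1, 47.1 and 53.1 CPM in fx/fx. Rgs2, a regulator of G protein signals (ENSMUSG00000026360, 143999338 to 144004161), measured 21.2, 11.3 and 120.8 CPM in wt/wt and 79.0, 37.3 and 212.9 CPM in fx/fx. Uchl5 was low in wt2 and alike in the 5 others, and Rgs2 varied among all 6. The next profile gene, Pla2g4a, a phospholipase that releases arachidonic acid, starts at 149829618 and measured 12.6, 4.80 and 7.51 CPM in wt/wt and 11.9, 14.1 and 19.1 CPM in fx/fx. In the profile Rgs2 is the only gene between Uchl5 and Pla2g4a, so the place of the step within that gap rests on 1 gene.

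**Figure D4:**
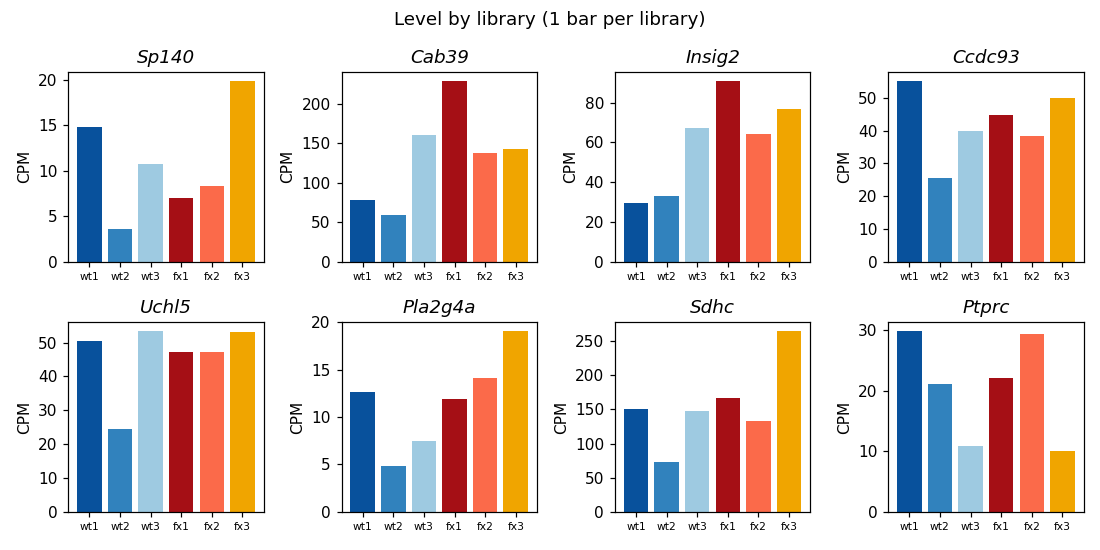
Level in CPM (vertical axes, from 0) in each library, 1 bar per library, for 6 genes beside or near a step (Sp140, Cab39, Insig2, Ccdc93, Uchl5 and Pla2g4a), for Sdhc within stretch D and for Ptprc. Cab39 and Insig2 are low in wt1 and wt2, Ccdc93 and Uchl5 in wt2 alone, Sdhc is also highest in fx3, and Ptprc has another order of libraries.

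The members were then read by role, from 9 lists that held 189 members of the region. General cell machinery (proteasome, translation, transport and chromatin genes that most cells express) had 30 of 31 members in the profile. For 27 of the 30, wt2 was the lowest library, and for 22 fx3 was the highest. Their medians were 0.29, -0.54 and 0.31 in wt/wt and 0.44, 0.38 and 0.88 in fx/fx, close to those of the whole region. In stretch B wt1 and wt2 were both below the other 4 libraries for 9 of 10 such genes.

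Hdlbp, an RNA-binding protein, is 1 of those genes of stretch B. It measured 319.7, 328.4 and 609.7 CPM in wt/wt and 663.8, 714.6 and 683.5 CPM in fx/fx. Ncl, the nucleolar protein nucleolin, measured 353.9, 314.5 and 777.8 CPM in wt/wt and 543.3, 610.1 and 912.7 CPM in fx/fx. For both genes wt3 lay within or close to the fx/fx values and away from the other 2 wt/wt libraries, being 1.91-fold (Hdlbp) and 2.20-fold (Ncl) above wt1.

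Mitochondrial proteins had all 14 members in the profile. The library wt2 was the lowest for 13 of the 14, and fx3 the highest for 10. Sdhc, a membrane subunit of succinate dehydrogenase in stretch D, measured 150, 73.1 and 148 CPM in wt/wt and 166.5, 133.8 and 264.8 CPM in fx/fx. Iars2, the mitochondrial isoleucyl-tRNA synthetase, measured 85.7, 36.3 and 87.4 CPM in wt/wt and 134.6, 85.7 and 152.4 CPM in fx/fx. From wt2 to fx3 these genes differed by 3.62-fold and 4.20-fold, with the other libraries between, and the genotypes overlapped in each.

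Cell division genes had 13 of 14 members in the profile. All 8 of those in stretch D were highest in fx3, with a median of 1.16 there, but wt2 was the lowest for only 2 of the 8. In wt3 and fx1 the 8 had medians of -0.23 and -0.41, below the stretch's 0.23 and 0.45. Cenpf, a kinetochore protein of dividing cells, measured 121.7, 70.3 and 39.0 CPM in wt/wt and 45.8, 77.5 and 144.1 CPM in fx/fx. Mcm6 of stretch C, a subunit of the replicative helicase, measured 143.6, 60.0 and 99.6 CPM in wt/wt and 61.0, 112.8 and 181.4 CPM in fx/fx. For Cenpf wt3 was the lowest library, and for Mcm6 wt2 and fx1 lay close together below the others.

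Leukocyte receptors and signalling genes departed from the rest of the region. Only 7 of 32 members were in the profile, wt2 was the lowest library for 1 of them and fx3 the highest for 0. In stretch D the 4 in the profile (Fcgr2b, Fcgr3, Fcer1g and Cd84, receptors or receptor subunits of leukocytes) had medians of 0.27 in wt2 and -0.66 in fx3, where all genes of the stretch had -0.58 and 1.04. Fcgr2b, the inhibitory Fc receptor, measured 8.26, 18.4 and 10.96 CPM in wt/wt and 14.8, 16.6 and 7.98 CPM in fx/fx. Ptprc of stretch C, the pan-leukocyte CD45, measured 29.8, 21.1 and 10.8 CPM in wt/wt and 22.1, 29.4 and 10.1 CPM in fx/fx. Thus fx3, highest for most of stretch D, was the lowest library for Fcgr2b and Ptprc. Cxcr4 of stretch C, in the same list, went another way. Against the wt/wt mean it was at 0.79 in fx3 and at -0.32 in wt2, its lowest library.

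Markers of macrophages and other myeloid cells outside the region, all 8 detected, had their lowest summed level in fx3, at 202.7 CPM. The sum ran from 289.7 to 435 CPM in the other libraries. Singly, Adgre1, Cd68, Lyz2 and Tyrobp were lowest in fx3. Csf1r, Itgam, Mrc1 and Cd14 were not, with Cd14 at 22.6 CPM in fx3 and 11.8 CPM in wt1. Lymphocyte markers summed to 3.08 CPM in fx3 and to between 4.63 and 14.3 CPM elsewhere, and 2 of the 9 were at 0 counts in at least 1 library. None of the 47 markers used lies on distal chromosome 1. The part of leukocyte content in the levels of the receptors was not tested. Without the leukocyte, interferon-inducible and complement genes, a setting added after the data were seen, the region's median was -0.54 in wt2 and 0.82 in fx3, close to the values with them.

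Of the interferon-inducible nuclear proteins, only Sp100 and Sp140 were in the profile, of 15 members in the region. The interferon-inducible genes of stretch D include closely related copies between which reads can be shared or lost. They enter only in the count of 15, and their levels are not reported here. Complement regulators had 2 of 7 members in the profile. Cr1l, a membrane regulator of complement near the distal end of the chromosome, measured 95.1, 40.8 and 77.9 CPM in wt/wt and 93.6, 68.8 and 136.9 CPM in fx/fx. Cd55, decay-accelerating factor, measured 94.7, 21.5 and 59.1 CPM in wt/wt and 49.9, 73.3 and 48.3 CPM in fx/fx. Both were lowest in wt2, and Cr1l was also highest in fx3.

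Epithelial and mammary genes had 15 of 18 members in the profile, with wt2 lowest for 8 and fx3 highest for 6. In stretch D, 5 of 6 were lowest in wt2 and 5 of 6 highest in fx3, where their median was 1.57. F11r, the tight junction protein JAM-A, measured 219.3, 115.8 and 196.1 CPM in wt/wt and 277.5, 218.4 and 386.4 CPM in fx/fx. Mlph of stretch B, a linker of Rab27 vesicles to myosin, measured 168, 111.2 and 230.6 CPM in wt/wt and 381.2, 201.6 and 274 CPM in fx/fx. Inhbb, an activin subunit in the same stretch, went another way, at 228.9, 147.3 and 249.6 CPM in wt/wt and 296.2, 212.5 and 136.9 CPM in fx/fx.

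Matrix and adhesion genes had 12 of 27 members in the profile, and some of them, such as F11r and Nectin4, are epithelial and stand in both lists. Their median in fx1, 1.10, was above the region's 0.49, and wt2 was lowest for 8. Fibroblast markers, all 8 detected and none in the region, were 1.35, 1.65 and 0.69 above the wt/wt mean in fx1, fx2 and fx3 (mean log2 difference). These are means over markers, and Pdgfra, Pdgfrb and Thy1 overlapped between genotypes. The part of stromal content in the levels of the matrix genes was not tested. Growth control, transcription and stress genes had 27 of 38 members in the profile. In stretch B, all 7 of those were lower in both wt1 and wt2 than in the other 4 libraries.

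**Figure D5:**
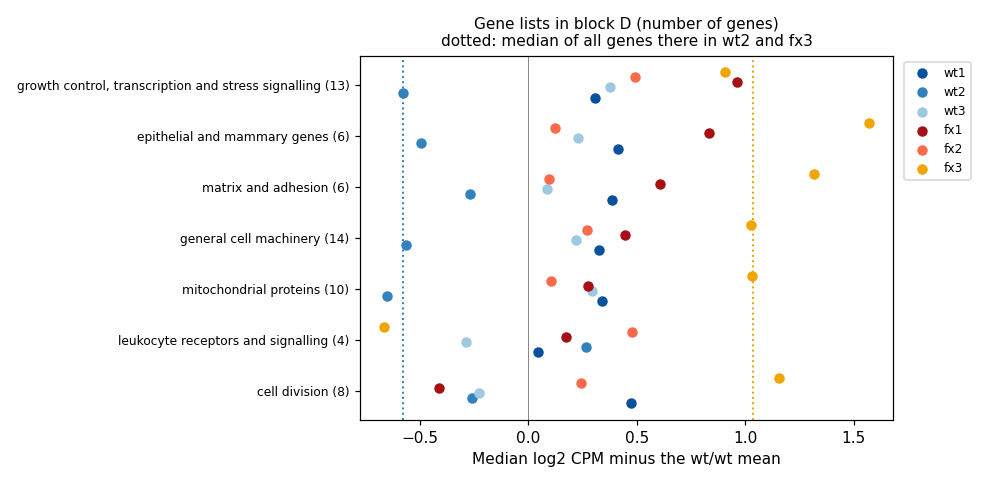
Median log2 CPM minus the wt/wt mean (horizontal axis) of each gene list with at least 4 profile genes in stretch D (block D on the plot; rows, with the number of genes), 1 point per library. Dotted lines are the medians of all genes of the stretch in wt2 (-0.58) and fx3 (1.04); the points of the general, mitochondrial, epithelial and matrix lists in fx3 lie near or beyond the line, and that of the leukocyte list lies on the other side of 0.

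Genes that the profile left out were measured in the same libraries. The 102 protein-coding members with a mean log2 CPM from 0 to 3 had medians of 0.12, -0.08 and -0.06 in wt/wt and 0.47, 0.70 and 0.28 in fx/fx. In stretch D, 56 such genes had a median of 0.17 in fx3 and -0.05 in wt2, both nearer to 0 than those of the profile genes. On the other chromosomes, low expressed coding genes were also higher in fx1 and fx2 (0.22 and 0.20), at -0.03 in fx3 and at 0.10 in wt2. Of genes that do not code for proteins, 23 in stretch D had a mean log2 CPM over 0. Their median in fx3 was 0.74, and fx3 was the highest library for 16 of the 23. In wt2 it was -0.01.

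Among profile genes the shift was present in every class of level. In stretch D, the fx3 median was 0.94 in genes with a mean log2 CPM from 3 to 4 and 1.16 in genes over 7. The wt2 median in the same stretch was -0.29 in the lowest of these classes, -0.65 in the class from 6 to 7 and -0.58 in genes over 7.

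Sequence features of the members were compared with those of all profile genes. Of the 359 profile genes 314 had a promoter in the RefSeq table (87.5%), with a median GC content of 61.7% and a ratio of observed to expected CpG of 0.795, against 61.7% and 0.794 for all 8004 profile genes with one. GGGCGG stood on either strand in 68.2% of them (68.8% of all), and CCAAT in 37.9% (38.9% of all). TATAAA stood in 3.50% (11 promoters), against 6.27% of all, a difference that was not tested. Over promoters of all protein-coding genes, whatever their level, the shares were 48.2%, 38.8% and 12.9% in the same order. The longest transcripts of the region's profile genes had a median length of 4102 bases and a median GC content of 47.6%, and those of all profile genes 3553 bases and 49.6%.

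The comparison of fx/fx with wt/wt asks which genes differ when CdGAP can be deleted. Of the 798 members, 520 passed edgeR's filter on low counts and were tested among 16752 genes. With edgeR's quasi-likelihood test 0 genes passed an adjusted p of 0.05 (0.0% of all tested), hence 0 members, while 122 members (23.5%) were higher and 1 (0.192%) lower at an unadjusted p under 0.05. Over all tested genes those shares were 8.18% higher and 6.04% lower. DESeq2, run as an alternative, called 36 members higher (6.92%) and 0 lower at an adjusted p of 0.05, against 3.01% and 1.95% of all tested genes. The median log2 fold change was 0.53 over the tested members and -0.00 over all tested genes. Without wt2 the median over members was 0.33.

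The fold changes come from the same 6 libraries, wt/wt and fx/fx, as the rule that chose the region, so these counts describe it and support nothing. Of the members, 119 (22.9%) had all fx/fx libraries above all wt/wt libraries, against 9.74% of all tested genes, and 1 (Htr5b) had them all below, against 9.93%. Htr5b and Prox1, the 1 member lower at an unadjusted p under 0.05, were named after their values were seen. Leaving out wt2 brought the members at an unadjusted p under 0.05 in edgeR from 123 of 520 to 72 of 533. Over all tested genes the counts were 2381 of 16752 and 1943 of 17193. Correcting for GC content and transcript length brought the members to 76 of 520, against 2173 of 16752 of all tested genes.

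Among the tested members, 10 had the smallest edgeR p: Fmo1, Steap3, Chit1, Atp1b1, Dpt, BC034090, Kcnk2, Lamc1, Ivns1abp and Pam. All were higher in fx/fx, with groups that did not overlap, and edgeR's adjusted p lay between 0.153 and 0.182. Fmo1, Chit1 and Kcnk2 were under 1 CPM in all wt/wt libraries, so their fold changes rest on low wt/wt levels. Of the 36 calls of DESeq2, 13 were kept with each library left out in turn and 23 were lost without at least 1 library. Among the 10, only Kcnk2, a potassium channel, was lost, without fx1 (DESeq2 adjusted p = 0.064). The count of members called higher went from 36 of 520 to 23 of 529 without wt1 and 22 of 533 without wt2. Without wt3, fx1, fx2 and fx3 it was 63 of 531, 23 of 533, 51 of 532 and 48 of 533. Called lower were 3 members without wt2, 1 without fx1, 3 without fx2 and 0 otherwise. Over all genes, in either direction, 831 of 16752 were called in full, 406 of 17203 without wt1 and 599 of 17193 without wt2. Without wt3, fx1, fx2 and fx3 these were 563 of 17215, 525 of 17155, 1738 of 17279 and 850 of 17278.

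Atp1b1, the beta subunit of the sodium pump (ENSMUSG00000026576, 164437109 to 164458355), had the highest level of the 10. It measured 142, 64.2 and 142.4 CPM in wt/wt and 1304, 380.5 and 1980 CPM in fx/fx. The log2 fold change was 3.39 with an SE of 0.63, edgeR's adjusted p was 0.153 and that of DESeq2 1.15e-06. Every fx/fx library was above every wt/wt library, and fx2 was the lowest of the fx/fx libraries.

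Lamc1, the laminin gamma 1 chain of basement membranes, measured 109.7, 83.9 and 95.1 CPM in wt/wt and 209.6, 170.8 and 342.3 CPM in fx/fx, a log2 fold change of 1.32 with an SE of 0.28 (adjusted p = 0.182 in edgeR and 0.0029 in DESeq2). Ivns1abp, a kelch protein that binds actin, measured 179.9, 99.97 and 169.2 CPM in wt/wt and 410.2, 281.9 and 395.8 CPM in fx/fx, a log2 fold change of 1.28 with an SE of 0.28 (adjusted p = 0.182 in edgeR and 0.0038 in DESeq2). Both lie in stretch D, and for Ivns1abp fx1 was above fx3.

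Steap3, an iron reductase of endosomes in stretch B, measured 3.96, 6.21 and 5.26 CPM in wt/wt and 21.3, 14.4 and 16.2 CPM in fx/fx (log2 fold change 1.75 with an SE of 0.29, adjusted p = 0.153 in edgeR and 2.33e-06 in DESeq2). Pam, an enzyme that amidates peptide hormones, measured 26.8, 33.7 and 48.3 CPM in wt/wt and 114.7, 78.2 and 246 CPM in fx/fx (log2 fold change 2.01 with an SE of 0.44, adjusted p = 0.182 in edgeR and 0.0010 in DESeq2). For Steap3 wt2 was the highest of the wt/wt libraries, unlike most genes of its stretch.

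Dpt, a matrix protein of fibroblasts, measured 4.41, 3.97 and 4.08 CPM in wt/wt and 14.0, 23.5 and 9.50 CPM in fx/fx. Chit1, a chitinase of macrophages, measured 0.753, 0.893 and 0.524 CPM in wt/wt and 6.26, 2.49 and 10.6 CPM in fx/fx. Fmo1, a flavin-containing monooxygenase, measured 0.199, 0.112 and 0.240 CPM in wt/wt and 1.13, 1.42 and 1.70 CPM in fx/fx. Dpt was highest in fx2, the library with the highest summed level of fibroblast markers. Adipocyte markers, all 6 detected, also summed highest there, at 220.4 CPM, with 73.44 CPM in fx1, 98.38 CPM in fx3 and between 17.36 and 50.85 CPM in wt/wt. Endothelial markers, all 8 detected, summed to 225.0, 199.9 and 113.0 CPM in fx/fx and to between 93.54 and 120.1 CPM in wt/wt. The part of stromal, adipocyte or endothelial content in the levels of these genes was not tested.

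Single genes stood far from their stretch in 1 or more libraries. Chil1, a chitinase-like secreted protein of stretch C, measured 536.8, 168.2 and 258.2 CPM in wt/wt and 7187, 801.2 and 913.9 CPM in fx/fx, so that fx1 stood apart. Dpp10, a potassium channel partner in the same stretch, was at 82.9 CPM in fx2 and between 3.71 and 9.36 CPM in the 5 other libraries. Hhipl2 of stretch D was among the 3 highest differences of both fx1 and fx2, at 604.6 and 178.3 CPM, with 557 CPM in fx3 and 68.0, 17.8 and 95.6 CPM in wt/wt. Downward, Efhd1, a calcium-binding mitochondrial protein of stretch B, measured 53.8, 25.2 and 89.8 CPM in wt/wt and 9.59, 41.7 and 4.95 CPM in fx/fx. Mfsd4a, a membrane transporter of stretch C, measured 453.4, 48.7 and 194.8 CPM in wt/wt and 16.4, 257.7 and 65.7 CPM in fx/fx. In both of these genes fx2 lay within the range of wt/wt.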

How the data were processed

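The deposited values for the 6 libraries were raw counts, whole numbers of read pairs assigned to each gene. Per the file headers, the authors counted with featureCounts 1.6.0 against Ensembl release 93 (GRCm38), with both ends aligned, chimeric pairs left out and strand option 2. Alignment with STAR 2.5.1b and an older featureCounts, 1.4.6, are listed per the submitters' processing notes, beside DESeq2 1.12.3, DESeq and FastQC 0.11.5. Each file held 54232 genes, of which 54165 had a symbol in GENCODE M21, and 0 rows named no gene. A count of 0 is compatible with up to 3 counts, which equal 0.0564 to 0.0803 CPM in these libraries, for counting error only.

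The members, the gene lists and the rule for named genes were chosen with earlier results of these data known. That rule took the 3 members of each list with the highest mean CPM in the profile, the 2 genes on each side of each step, the 3 highest and 3 lowest differences in each fx/fx library and the 10 smallest edgeR p; the texts give those the results turn on, and some genes that the rule covers are not reported here. CPM and log2 CPM (prior count 2) used TMM library sizes. Profiles are differences from the wt/wt mean, in order of start. Steps came from least-squares partitioning of all 573 profile genes of chromosome 1 (penalty 3, at least 15 genes per stretch, values limited to 3 robust SDs around a running median of 51 genes). Genotypes were compared with edgeR 4.0.16 (filterByExpr, quasi-likelihood, robust, 2-sided, Benjamini-Hochberg over all genes tested) in R 4.3.3, and with DESeq2 1.42.0 as an alternative. Other alternatives changed the scaling, filter, prior count, reference, GC content and length correction, replicate block and libraries used.

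The step search and the genotype test were tested on simulated data before use. The search found the right number of steps in all 50 profiles with 2 known steps, misplaced by up to 14 genes, and 0 in flat profiles. Those simulated steps were larger than the smaller steps reported here. In simulated counts edgeR recovered 5.71% of genes changed 2-fold and 52.3% of those changed 4-fold. Its 0 calls thus do not show that smaller shifts are absent.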

Additional observations from a re-analysis of the deposited data

How the results depend on the processing

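Over all genes, edgeR's 0 calls for fx/fx against wt/wt became 831 with DESeq2 (between 406, without wt1, and 1738, without fx2, with 1 library left out), 38 without a filter on low counts, 1 with offsets for GC content and length, and between 0 and 2 with 1 library left out (2 without fx/fx replicate 2). With the replicate number as a block there were 0 calls, and 15 with the block and the offsets together. Samples with the same number did not deviate together (correlations of -0.085, -0.0946 and 0.0569). With deviations taken within 3 libraries a genotype, these values cannot settle whether the numbers pair samples. Without wt2, 72 of 533 members were at an unadjusted p under 0.05 in edgeR, and 76 of 520 with the offsets, against 123 of 520. Over all tested genes the counts were 1943 of 17193, 2173 of 16752 and 2381 of 16752, in the same order.

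The region's medians kept their sign in wt2, fx1, fx2 and fx3 under all references tried. Against the mean of all 6 libraries they were -0.0013 in wt3 and 0.23, 0.11 and 0.50 in the fx/fx libraries. Against wt3 alone fx/fx was at 0.19, 0.11 and 0.51. Against the median of 6 wt1 was at -0.014 and wt3 at -0.050, with fx/fx at 0.12, 0.037 and 0.45. With 1 wt/wt library left out of the reference they ran from 0.038 to 0.48 in wt1, from -0.80 to -0.41 in wt2, from -0.038 to 0.42 in wt3, from 0.22 to 0.67 in fx1, from 0.13 to 0.50 in fx2 and from 0.55 to 0.98 in fx3, with the lowest of each without wt2. By construction a reference without the low wt2 is higher. Signs also turned for wt3 in stretch C (-0.0024 against the mean of 6, -0.15 without wt2 and -0.082 against the median) and in stretch D (-0.083, -0.066 and -0.096), for fx2 in stretch D (-0.0017 against the median) and for wt1 in stretch B (0.058 without wt3 in the reference).

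Steps in wt2 fell from 2 to 0 with penalty 5, with the mean of 6, wt3 or the median of 6 as reference, and to 1 with at least 25 genes per stretch. The step of fx2 was lost with penalty 5 (0 steps), and fx1 gained 1 against wt3. In wt1 a further step was gained against the mean of 6, wt3 and the median of 6. The fx2 step changed place under those 3 references, and the wt3 step moved to Slc35f5 and Mgat5 against the median of 6. The cause of these changes was not tested. With 3 libraries a genotype, and stretch A resting on 9 profile genes, small shifts cannot be told from the spread between libraries.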
